A study of Mus musculus with 4 samples.

Results

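The odorant receptor (*OR*) genes described here were those whose symbol is *Olfr* followed by a number from 988 to 1279 and nothing else. The deposited values held 210 such genes among 1125 genes with an *Olfr* symbol and 24421 genes in all. The rule used the symbol alone and no measured value. All 210 genes lie on mouse chromosome 2 in assembly GRCm38 (mm10), 208 by the GENCODE M21 annotation and 2 (*Olfr1182* and *Olfr1213*) by RefSeq. Of these, 205 form one cluster at chr2:85352428-90292841, a span of 4.94 Mb. The remaining 5, *Olfr1275* to *Olfr1279*, lie at chr2:111230360-111309043, after a gap of 20.9 Mb. The annotation calls 209 of the genes protein coding, while *Olfr1010* is a polymorphic pseudogene.

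ORs are G protein-coupled receptors on the cilia of olfactory sensory neurons (OSNs). Mammalian *OR* genes fall into class I, which lie together on mouse chromosome 7, and class II, which form clusters on many chromosomes, of which the chromosome 2 cluster is among the largest. Each mature OSN that uses an OR transcribes a single *OR* allele, chosen within limits set by receptor class and by zone of the epithelium and kept stable by feedback from the receptor protein, so the RNA of an *OR* gene in a bulk sample depends strongly on how many OSNs chose it. Trace amine-associated receptors (TAARs) form a small separate family of olfactory receptors, and an OSN that expresses a TAAR normally expresses no OR.

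RNA-seq was performed on sorted cells of the main olfactory epithelium (MOE) of mice carrying one of 2 transgenes. The strain is C57BL/6 in the sample labels, whereas the Reporting Summary describes the lines of the study as mixed between C57BL/6J and 129. In the TAAR enhancer 1-GFP line (GFP line) and the TAAR enhancer 2-tdTomato line (tdTomato line), the named TAAR enhancer stands before the Hsp68 minimal promoter and the reporter gene. Reporter-positive and reporter-negative cells of each line were collected by FACS, which gives 4 groups with 1 library in each. The study kept 1 founder line for each transgene, the endogenous *Taar* and *OR* genes were left in place, and no wild-type library was analysed here. The mice are called adult in the sample labels, whereas the Reporting Summary gives 14 days for the GFP line and 14 to 21 days for the tdTomato line, so line, reporter, and possibly age cannot be told apart between the lines. With 1 library for each group, no difference has a replicate check and no p-value was calculated.

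The values are TPM, a level of transcripts scaled for transcript length and to a total of 1000000 in each library, so depth is unknown and no detection limit can be given. The summed TPM of the 14 olfactory *Taar* genes, which the reporters are meant to mark, was 86.1 and 804.1 in negative and positive cells of the GFP line, and 60.8 and 3476 in those of the tdTomato line. The 12 mature OSN markers summed to 30723, 3333, 33144, and 15021 TPM in GFP-negative, GFP-positive, tdTomato-negative, and tdTomato-positive cells, and none was at 0 in any library. The Bowman gland markers summed to 1804 and 69768 TPM in negative and positive cells of the GFP line and to 557.5 and 2605 TPM in the tdTomato line. The multiciliated cell markers summed to 585 and 1871 TPM in the GFP line and to 507 and 5977 TPM in the tdTomato line. The 7 sustentacular cell markers summed to 1293 and 12628 TPM in the GFP line, where all 7 were at least 2-fold higher, and to 2197 and 10316 TPM in the tdTomato line. In the tdTomato line only *Cbr2* (855 and 6327 TPM) and *Cyp2a5* (745 and 3572 TPM) were at least 2-fold higher, while *Cyp2g1*, *Cyp1a2*, and *Muc2* were at least 2-fold lower, and the median log2 value of the list was 0.064. The sums were, for the horizontal basal cell markers, 63.0 and 629 TPM and 152 and 29.1 TPM, for the immature OSN markers 2090.3 and 411 TPM and 1682 and 918 TPM, and for the leukocyte markers 1806 and 27.7 TPM and 1518 and 47.4 TPM, each in negative and positive cells of the GFP line and then of the tdTomato line. The markers at 0 were *Ccdc153* and *Tctex1d4* in GFP-negative cells, *Tctex1d4* in tdTomato-negative cells, and *Cd3e* in GFP-positive cells. In a bulk library, fewer OSNs and less receptor RNA per OSN cannot be told apart, and the part of other cell types in the differences of *OR* genes was not tested.

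The members are short genes of similar design, with coding sequences of 909 to 1038 bases (median 936) in the 208 genes for which one was found. In 184 genes at least 1 transcript has more than 1 exon. In translated sequence, the closest other member of a gene was 84.0% identical at the median (range 37.6 to 98.4%), and 31 members were at least 95% identical to another. The median member shared 1.38% of the 50-base windows of its transcripts with another *OR* gene, 59 shared none, and none shared over 50%. These windows cover whole transcripts, and sharing can be larger in the coding part. *Olfr1034*, for example, shared 10.1% over its transcripts, but 36.0% of its coding windows were also in *Olfr1036*. One stretch is common to the family, and it is shown for 4 members on which the results turn, to give what the members share. It lies at the inner end of the third transmembrane helix, a region that takes part in G protein coupling. The capitals mark the bases that a gene has in common with at least 95% of the members, which 12 of the 30 positions can show. The search pattern was widened after sequences that it had missed were viewed, so that 207 of the 208 coding sequences hold it is a description only. The stretches are given in the coding direction and come from the GRCm38 genome.
*Olfr1015* (chr2:85785864-85785893, plus strand): ATGgCatatGAtcGacacgctGCaATttgt
*Olfr1026* (chr2:85923621-85923650, plus strand): ATGgCttatGAtcGtTatgtgGCcATctgc
*Olfr1034* (chr2:86046829-86046858, plus strand): ATGgCctttGAtcGcTacatgGCcATctgc
*Olfr1036* (chr2:86075087-86075116, plus strand): ATGgCcttcGAtcGcTacgtgGCcATctgc

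Summed over the members, chromosome 2 *OR* genes were lower in reporter-positive than in reporter-negative cells of both lines. In the GFP line their summed TPM was 2980.5 in the negative and 238 in the positive library, which is 12.5-fold lower (log2 ratio -3.65). In the tdTomato line the sums were 3553 and 711, which is 4.99-fold lower (log2 ratio -2.32). Of the summed TPM of all *OR* genes, the members made up 16.2% in GFP-negative, 15.2% in GFP-positive, 17.2% in tdTomato-negative, and 13.5% in tdTomato-positive cells. They are 18.7% of the *OR* genes by number, so their share by TPM was below their share by number in each library. Set against the mature OSN markers, the summed member TPM was 9.70% of the summed marker TPM in GFP-negative, 7.15% in GFP-positive, 10.7% in tdTomato-negative, and 4.74% in tdTomato-positive cells.

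The ratios were also calculated under 3 other scalings of the libraries. Scaling by the median ratio over 11943 genes moved log2 ratios without a pseudocount by 0.88 in the GFP line and 0.16 in the tdTomato line, scaling to the mature OSN markers by 3.11 and 1.07, and scaling to the summed *OR* TPM by 3.56 and 1.97. Values on the log2(TPM + 1) scale moved less where levels were low, and the median of the members in the GFP line went from -2.97 to -2.53, -1.73, and -1.42 under the 3 scalings. The log2 ratio of the summed member TPM stayed negative under each, from -2.76 to -0.086 in the GFP line and up to -0.35 in the tdTomato line.

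The number of members with a value was also smaller in reporter-positive than in reporter-negative cells of each line. Above 0 TPM were 160 members in GFP-negative, 84 in GFP-positive, 128 in tdTomato-negative, and 47 in tdTomato-positive cells, and 93, 4, 93, and 20 members respectively reached 10 TPM. In that order of libraries, the share above 0 was 76.2%, 40%, 61.0%, and 22.4% for the members and 76.3%, 47.5%, 60.3%, and 24.9% for the other *OR* genes. In total 181 members were above 0 in at least 1 library, 18 were above 0 in all 4, and 29, among them the pseudogene *Olfr1010*, were listed at 0 in each. Among the members above 0, the median level was 12.0, 1.67, 20.2, and 8.63 TPM in GFP-negative, GFP-positive, tdTomato-negative, and tdTomato-positive cells. After scaling to the mature OSN markers these medians were 8.48, 10.2, 12.4, and 11.0 in the same order of libraries. After scaling to the summed *OR* TPM they were 7.49, 12.3, 11.2, and 18.8. The gap between the reporter-positive libraries in this median thus depends on the scaling. So does the direction between negative and positive cells, which turned in the GFP line under both of these scalings and in the tdTomato line under that to summed *OR* TPM.

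**Figure D1:**
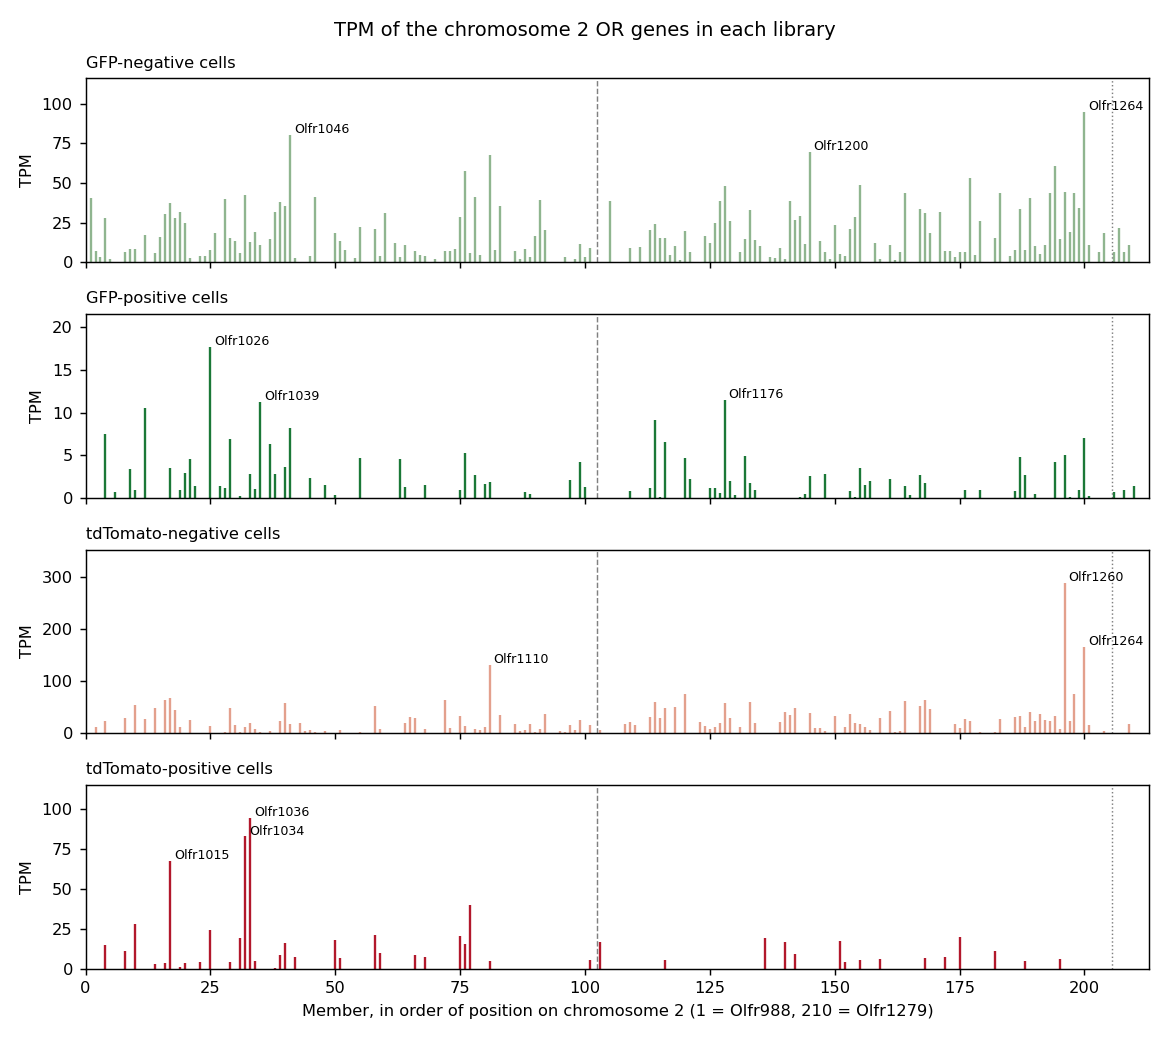
TPM of each of the 210 members (vertical lines) in the 4 libraries, in order of position on chromosome 2, with the 3 highest members of each library named. Each panel has its own vertical scale, the dashed line parts the first 102 from the next 103 members of the large cluster, and the dotted line parts off *Olfr1275* to *Olfr1279*. In tdTomato-positive cells the tallest lines are left of the dashed line.

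The summed TPM rested on few members in the reporter-positive cells. The 10 highest members held 20.97% of the summed member TPM in GFP-negative, 40.5% in GFP-positive, 29.9% in tdTomato-negative, and 58.6% in tdTomato-positive cells. Counted from the highest, 33, 15, 24, and 7 members in that order of libraries were needed to reach 50% of the sum. The other *OR* genes showed the same order, with 7.23%, 14.7%, 10.1%, and 37.2% of their summed TPM in their own 10 highest genes, although these shares are over 915 genes and not 210.

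**Figure D2:**
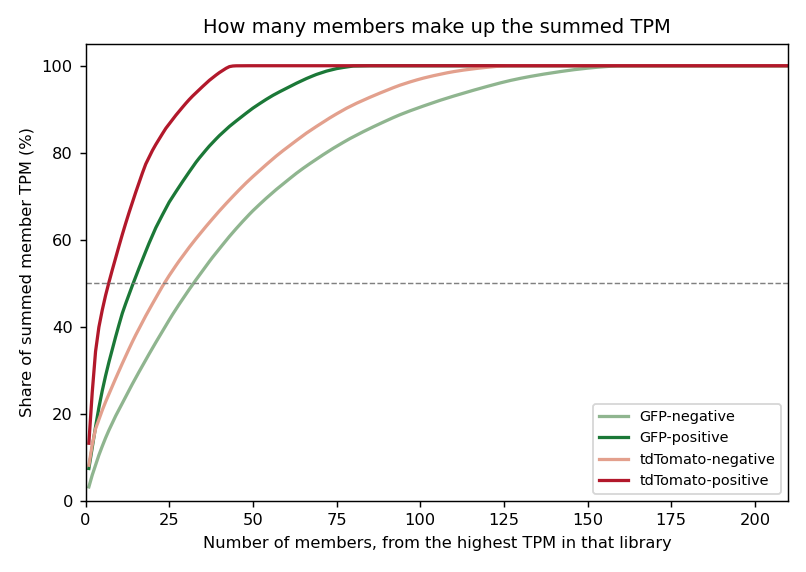
Share of the summed member TPM (%) held by a growing number of members, counted from the highest member of each library, with 1 line for each library. The dashed line at 50% is crossed at 7 members in tdTomato-positive cells and at 33 members in GFP-negative cells.

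To see how single members differed between GFP-positive and GFP-negative cells, log2((TPM + 1) ratios) were calculated for the 167 members with at least 1 TPM in either library. This scale understates the difference of genes with low levels. At least 2-fold lower were 150 members (89.8%), 9 were at least 2-fold higher (5.39%), and 8 lay between. Over all genes with at least 1 TPM in either library, 45% were called lower and 14.2% higher by the same limits. After scaling by the median ratio 140 members were lower and 11 higher, against 21.7% and 21.4% of all genes. With the scaling to mature OSN markers 107 were lower and 28 higher, against 8.38% and 77.6% of all genes, and under that to summed *OR* TPM 100 were lower and 32 higher, against 7.3% and 82.4% of all genes. The median log2 value was -2.97 for the members, -2.99 for all *OR* genes tested, of which 89.9% were lower, and -0.88 for all genes tested. Of the 150 lower members, 86 were listed at 0 in GFP-positive cells, so their log2 values depend on the pseudocount. Among the 73 members above 0 in both libraries, the median log2 ratio without a pseudocount was -3.41.

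The 5 members with the highest TPM in GFP-negative cells, which were chosen for that level, were all lower in GFP-positive cells as deposited. *Olfr1264* had 95.02 TPM in GFP-negative against 7.01 TPM in GFP-positive cells, *Olfr1046* had 80.5 and 8.22 TPM, and *Olfr1200* had 69.7 and 2.58 TPM. *Olfr1110* had 67.9 and 1.86 TPM, which is 36.4-fold lower, and *Olfr1258* had 60.4 and 4.20 TPM. Their ratios ranged from 9.79-fold lower for *Olfr1046* to that of *Olfr1110*. Under the scaling to mature OSN markers *Olfr1200* and *Olfr1110* were still at least 2-fold lower, whereas the log2 values of *Olfr1264*, *Olfr1046*, and *Olfr1258* were -0.64, -0.18, and -0.71, and under that to summed *OR* TPM *Olfr1046* was at 0.26. Of the members with over 40 TPM in GFP-negative cells, 8 were listed at 0 in GFP-positive cells, namely *Olfr1240* (52.8 TPM), *Olfr1247*, *Olfr1257*, and *Olfr1262* (43.9 TPM each), *Olfr1034* (42.2 TPM), *Olfr1052* (41.2 TPM), *Olfr1253* (40.7 TPM), and *Olfr988*. *Olfr988*, the first member of the cluster, had 40.4 TPM in GFP-negative cells and was listed at 0 in the other 3 libraries.

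The 5 highest members of GFP-positive cells, which were chosen for that level, ranged from 2.23-fold higher to 4.18-fold lower than in GFP-negative cells as deposited. *Olfr1026*, the highest member in GFP-positive cells, had 7.93 TPM in GFP-negative against 17.7 TPM in GFP-positive cells, and it was the only member at least 2-fold higher that reached 10 TPM in this line. *Olfr1039* had 11.1 and 11.3 TPM, *Olfr1009* 17.1 and 10.6 TPM, *Olfr1155* 24.2 and 9.18 TPM, and *Olfr1176* 48.2 and 11.5 TPM. Under the scaling to mature OSN markers all 5 were at least 2-fold higher in GFP-positive cells, with log2 values from 1.02 for *Olfr1176* to 4.04 for *Olfr1026*, and *Olfr1009* turned from -0.65 to 2.32. The other 8 members called higher had a value of 0 in the negative library, and the highest of them in the positive library was *Olfr1131* at 2.13 TPM.

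In the tdTomato line, 134 members had at least 1 TPM in either library. At least 2-fold lower in tdTomato-positive cells were 108 members (80.6%), 13 were at least 2-fold higher (9.70%), and 13 lay between. Over all genes tested, 23.2% were called lower and 17.2% higher. By the median ratio the counts were again 108 and 13, against 19.9% and 18.5% of all genes. With the scaling to mature OSN markers 97 members were lower and 19 higher, against 13.5% and 40.1% of all genes, and under that to summed *OR* TPM 95 were lower and 23 higher, against 11.1% and 73% of all genes. Of the 108 lower members, 89 were listed at 0 in tdTomato-positive cells. The median log2 value was -3.55 over the 134 members, a value that depends on the pseudocount through the members at 0, and the median log2 ratio without a pseudocount was -1.29 among the 37 members above 0 in both libraries. For all *OR* genes, the median log2 value was -3.33 and 78.3% were lower.

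Of the 5 members with the highest TPM in tdTomato-negative cells, which were chosen for that level, 3 were listed at 0 in tdTomato-positive cells and the other 2 were lower there. *Olfr1260* had 290.1 TPM in tdTomato-negative cells and *Olfr1264* had 166 TPM, and both were listed at 0 in tdTomato-positive cells. *Olfr1162* (76.3 TPM) and *Olfr1099* (63.1 TPM) were likewise listed at 0, and *Olfr1262* had 75.7 TPM in tdTomato-negative against 0.065 TPM in tdTomato-positive cells. *Olfr1110* had 131 and 5.16 TPM, which is 25.4-fold lower. In contrast, *Olfr1015* had 68.8 TPM in tdTomato-negative against 67.4 TPM in tdTomato-positive cells, a ratio of 0.98, and *Olfr1006* had 55.3 and 27.7 TPM. Under the scaling to mature OSN markers their log2 values were 1.02 and 0.066, and under that to summed *OR* TPM 1.91 and 0.95. *Olfr1026* had 13.3 and 24.2 TPM, 1.82-fold higher, and was the only member with a higher level in reporter-positive cells of both lines as deposited.

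**Figure D3:**
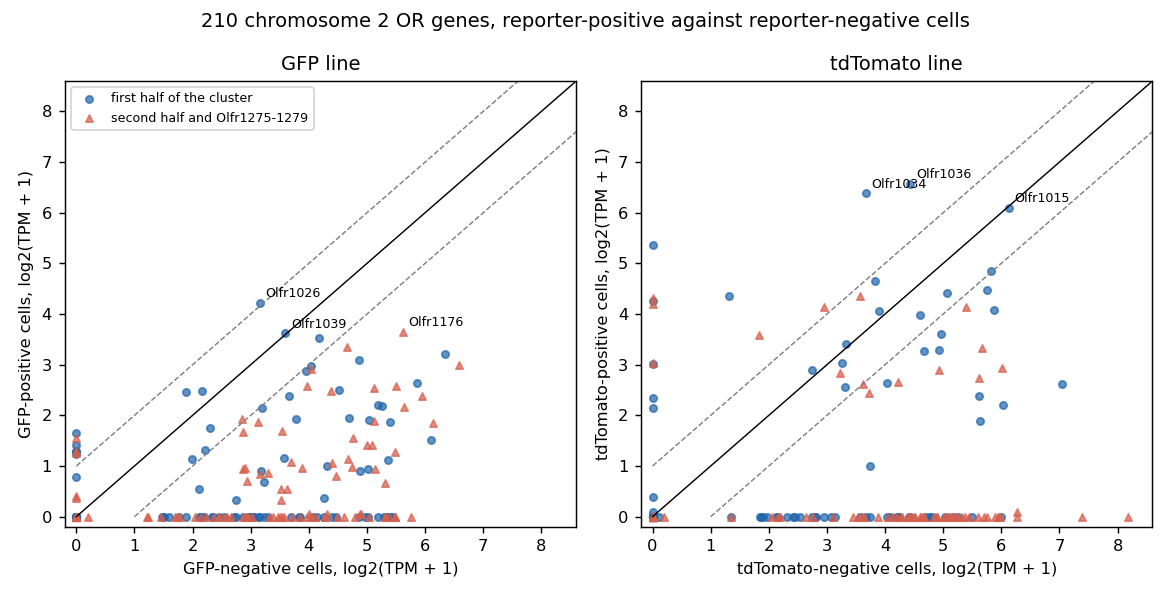
Levels of the 210 members on the log2(TPM + 1) scale in reporter-negative (horizontal axis) and reporter-positive cells (vertical axis) of the GFP line (left) and the tdTomato line (right). The solid line marks equal levels and the dashed lines 2-fold differences, and members on the horizontal axis are listed at 0 in reporter-positive cells. *Olfr1034* and *Olfr1036* stand above the dashed line in the tdTomato line.

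The 2 members with the highest TPM in tdTomato-positive cells, *Olfr1036* and *Olfr1034*, were chosen for that level and are neighbors that resemble each other closely. *Olfr1036* (chr2:86073992-86077194) had 12.8, 2.80, 20.6, and 94.1 TPM in GFP-negative, GFP-positive, tdTomato-negative, and tdTomato-positive cells. *Olfr1034* (chr2:86045861-86050742) had 42.2 TPM in GFP-negative cells, was listed at 0 in GFP-positive cells, and had 11.7 TPM in tdTomato-negative against 82.7 TPM in tdTomato-positive cells. In the tdTomato line *Olfr1036* was thus 4.56-fold higher and *Olfr1034* 7.06-fold higher in reporter-positive cells, whereas both were lower in reporter-positive cells of the GFP line, although *Olfr1036* was not under the 2 scalings set on OSN markers or *OR* genes. The pair held 24.8% of the summed member TPM in tdTomato-positive cells and 0.910% to 1.84% in the other 3 libraries. Without the pair, the other members made up 10.1% of the summed TPM of all *OR* genes in tdTomato-positive cells, against 13.5% with it.

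The coding sequences of *Olfr1034* and *Olfr1036* each have 930 bases and differ at 19 of them, and the translated sequences are 97.4% identical. Of the 50-base windows in either coding sequence, 36.0% (317 of 881) are in the other, so a read of that length from these windows could come from either gene. The 120-base stretch with the most differences is shown because it is where reads can best tell the genes apart. It covers coding bases 245 to 364, on the plus strand at chr2:86046728-86046847 for *Olfr1034* and at chr2:86074986-86075105 for *Olfr1036*. The capitals mark the 8 bases that differ.
*Olfr1034*: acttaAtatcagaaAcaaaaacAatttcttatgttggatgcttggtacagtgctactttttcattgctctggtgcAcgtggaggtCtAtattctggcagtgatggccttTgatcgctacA
*Olfr1036*: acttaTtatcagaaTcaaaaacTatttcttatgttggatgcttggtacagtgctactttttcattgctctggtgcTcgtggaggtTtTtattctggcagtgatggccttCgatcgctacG
How the authors' tool divided shared reads between both genes was not tested. In situ probes against *Olfr1034* and *Olfr1019* were part of the mixture of *OR* probes in the study. The study lists *Olfr1036* as a gene that cross-hybridizes with the *Olfr1034* probe. *Olfr1019* had 24.9 TPM in GFP-negative, 2.88 TPM in GFP-positive, and 3.42 TPM in tdTomato-positive cells and was listed at 0 in tdTomato-negative cells.

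The 3 pairs of members with the most similar translated sequences had at most 13.3 TPM in any library. *Olfr1049* and *Olfr1051* (98.4% identical) had at most 3.47 and 5.69 TPM, and *Olfr1129* and *Olfr1130* (98.1%) had at most 4.35 and 3.30 TPM. *Olfr1057* and *Olfr1062* (97.8%) had at most 13.3 and 2.41 TPM. Only *Olfr1057* of these 6 was above 0 in tdTomato-positive cells, at 6.48 TPM.

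Several further members were higher in tdTomato-positive than tdTomato-negative cells. *Olfr1105* was listed at 0 in tdTomato-negative cells and had 39.9 TPM in tdTomato-positive cells, and in the GFP line it had 5.73 TPM in negative cells and was listed at 0 in positive cells. *Olfr1186* had 19.0 TPM in tdTomato-positive cells and was listed at 0 in the other 3 libraries. *Olfr1056* (18.1 TPM) and *Olfr1208* (17.5 TPM) were also listed at 0 in tdTomato-negative cells, while *Olfr1033* had 1.48 TPM there and 19.5 TPM in tdTomato-positive cells, which is 13.1-fold higher. Of the 13 members called higher, 8 were listed at 0 in tdTomato-negative cells.

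The members were next compared between the lines. Of 124 members with at least 1 TPM in either library of each line, 90 were at least 2-fold lower in reporter-positive cells of both lines (72.6%), and 0 were at least 2-fold higher in both. Differences of at least 2-fold in opposite directions were found for 16 members (12.9%). The shares lower in both, higher in both, and opposite were 72.5%, 0.561%, and 12.3% over the 535 other *OR* genes that met the same minimum, and 15.4%, 8.42%, and 3.27% over all genes that met it. The members were thus close to the other *OR* genes in these shares. Under the scalings by the median ratio, the mature OSN markers, and the summed *OR* TPM, 85, 52, and 46 of the 124 members were lower in both lines (68.5%, 41.9%, and 37.1%), against 66.9%, 42.6%, and 37.6% of the other *OR* genes and 10.4%, 5.13%, and 4.21% of all genes. Under the same scalings 0, 1, and 4 members were higher in both lines (at most 3.23%), against 0.561%, 2.06%, and 6.54% of the other *OR* genes and 11.6%, 37.5%, and 69.8% of all genes. Of the 16 opposite members, 11 had at least 10 TPM in any library. Of these 11, 8 were lower in GFP-positive and higher in tdTomato-positive cells (*Olfr1019*, *Olfr1033*, *Olfr1034*, *Olfr1036*, *Olfr1056*, *Olfr1105*, *Olfr1208*, and *Olfr1246*), and 3 were the other way round (*Olfr1109*, *Olfr1131*, and *Olfr1214*). These 3 reached 10 TPM in tdTomato-negative cells only, and in the GFP line they had 1.66, 2.13, and 1.45 TPM in GFP-positive cells against 0, a call that is lost with a pseudocount of 10 or at 4-fold. Only *Olfr1033* and *Olfr1036* among them were above 0 in all 4 libraries, and the difference between the lines was not tested for any. After scaling the libraries to the same mature OSN marker level 9 of the 11 still differed in opposite directions by at least 2-fold, and 8 did so after scaling to the same summed *OR* TPM, which *Olfr1019* and *Olfr1036* did under neither.

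**Figure D4:**
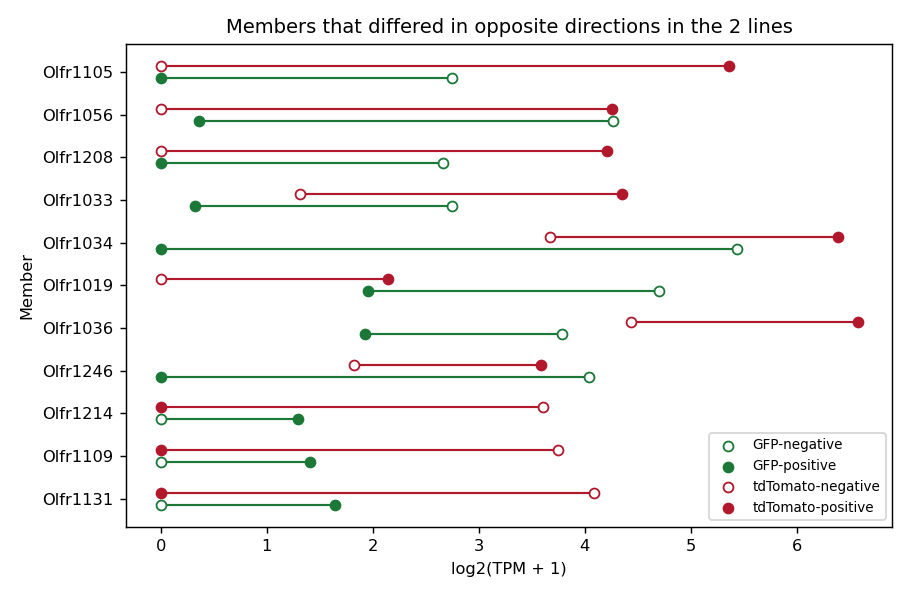
Levels on the log2(TPM + 1) scale of the 11 members with at least 10 TPM in any library that differed at least 2-fold in opposite directions between the lines. Open circles are reporter-negative and filled circles reporter-positive cells of the GFP line (green) and the tdTomato line (red), and a circle at 0 is a gene listed at 0.

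Of the 84 members above 0 in GFP-positive cells, 25% were also above 0 in tdTomato-positive cells, and these 21 members were 44.7% of the 47 above 0 in tdTomato-positive cells. For the other 915 *OR* genes the same shares were 36.3% and 69.3%, and for all genes 86.8% and 96.8%. In both reporter-negative libraries 114 members were above 0, which is 71.2% and 89.1% of those above 0 in GFP-negative and in tdTomato-negative cells. These shares were close to the 70.1% and 88.6% of the other *OR* genes, and for all genes they were 91.1% and 95.3%. Across the 210 members, which share libraries and their many zeros, Spearman's rho was 0.53 between both reporter-negative and 0.08 between both reporter-positive libraries. The reporter-negative libraries also differed from each other. Of 173 members with at least 1 TPM in either, 68 were at least 2-fold lower (39.3%) and 47 at least 2-fold higher (27.2%) in tdTomato-negative than in GFP-negative cells. The other *OR* genes were close to this, with 39.3% lower and 25.7% higher, against 12.4% lower and 11.4% higher over all genes tested. *Olfr1260*, with 44.1 and 290.1 TPM in GFP-negative and tdTomato-negative cells, and *Olfr988*, with 40.4 TPM and 0, are examples. The median over these members was -0.01 on the log2 scale. A 2-fold difference of a single member was thus common also between the libraries of reporter-negative cells.

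Along the chromosome, most of the member TPM of tdTomato-positive cells came from the first part of the cluster. The first 102 members by position (*Olfr988* to *Olfr1136*) held 43.5% of the summed member TPM in GFP-negative, 57.3% in GFP-positive, 37.0% in tdTomato-negative, and 78.0% in tdTomato-positive cells. Of the 10 highest members, 9 were among these 102 in tdTomato-positive cells, against 3 in GFP-negative, 6 in GFP-positive, and 4 in tdTomato-negative cells. In the tdTomato line, the summed TPM of the first 102 members was 1313 and 555.1 in negative and positive cells (2.37-fold lower), while that of the next 103 members (*Olfr1137* to *Olfr1272*) was 2222 and 156 (14.2-fold lower). In the GFP line, the sums were 1298 and 137 for the first 102 members (9.50-fold lower) and 1638 and 98.6 for the next 103 (16.6-fold lower). The log2 ratios of the 102 and 103 members therefore lay 2.59 apart in the tdTomato line and 0.81 apart in the GFP line, and no scaling of a library changes these gaps. The directions did change, as under the scaling to summed *OR* TPM the log2 ratio of the first 102 members was 0.31 in the GFP line and 0.73 in the tdTomato line, against -0.49 and -1.86 for the next 103. Without *Olfr1034* and *Olfr1036* the gap in the tdTomato line was 2.07. In numbers of genes, 31 of the first 102 members (30.4%) and 16 of the next 103 (15.5%) were above 0 in tdTomato-positive cells, and the corresponding numbers in GFP-positive cells were 39 and 42. This division of the cluster was chosen after the values were seen, and the difference across it was not tested.

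In consecutive blocks of 500 kb, the summed TPM was lower in GFP-positive than GFP-negative cells in all 12 blocks that hold members, but 2 blocks were higher under the scaling to mature OSN markers and 5 under that to summed *OR* TPM. In the tdTomato line it was lower in 11 of the 12 blocks, 8 of them after scaling to the same summed *OR* TPM. The exception was the block with the 27 members from *Olfr1032* to *Olfr1066*, which includes *Olfr1034* and *Olfr1036*. Its sum was 416, 45.0, 212, and 258 TPM in GFP-negative, GFP-positive, tdTomato-negative, and tdTomato-positive cells. Without the pair its sums in the tdTomato line were 179 and 80.8 TPM, and the log2 ratio went from 0.28 to -1.15. At the other extreme, the 18 members from *Olfr1160* to *Olfr1184* summed to 382 TPM in tdTomato-negative cells and all 18 were listed at 0 in tdTomato-positive cells, while 11 of them were above 0 in GFP-positive cells (31.0 TPM in sum, against 282 TPM in GFP-negative cells). The 5 members outside the large cluster were also listed at 0 in tdTomato-positive cells, with 17.4 TPM in tdTomato-negative cells, of which 1 member made up the whole. In GFP-positive cells 3 of these 5 were above 0, including *Olfr1279*, the last member by position, at 1.404 TPM.

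**Figure D5:**
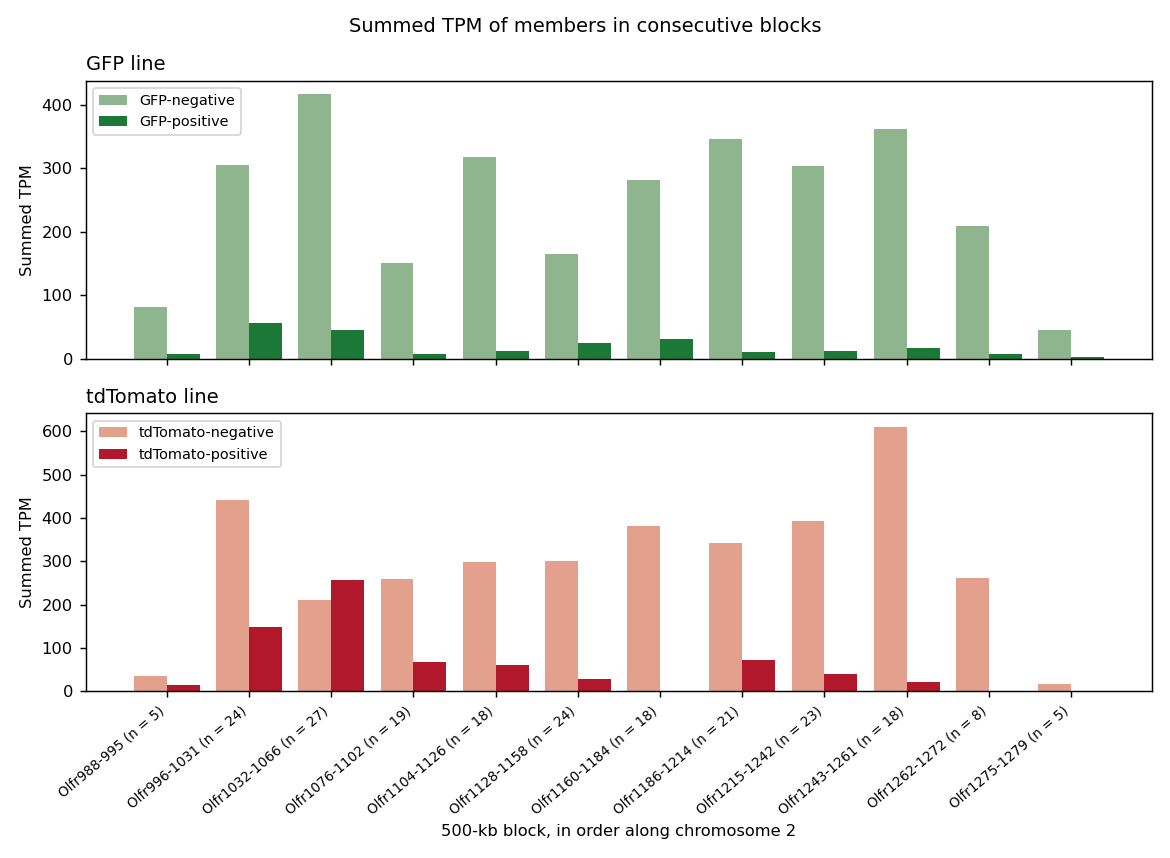
Summed TPM of the members in consecutive 500-kb blocks along chromosome 2, with reporter-negative (light bars) and reporter-positive cells (dark bars) of the GFP line (top) and the tdTomato line (bottom), and the number of members in each block. The dark bar exceeds the light bar only for *Olfr1032* to *Olfr1066* in the tdTomato line, with 258 and 212 TPM.

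The RefSeq synonyms place 196 members in 45 MOR families, a naming system for mouse ORs by sequence similarity, and 16 families had at least 5 members. The summed TPM was lower in reporter-positive cells for all 16 families in both lines as deposited, whereas up to 7 were higher in GFP-positive and up to 6 in tdTomato-positive cells under the 3 other scalings. MOR264, with 14 members, had 144 TPM in GFP-negative, 1.89 TPM in GFP-positive, and 173 TPM in tdTomato-negative cells, and each member was listed at 0 in tdTomato-positive cells. MOR233, the family with 17 members, had 263, 16.04, 393, and 25.5 TPM in the same order of libraries. MOR213, with 7 members including *Olfr1006* and *Olfr1015*, kept more in tdTomato-positive cells, with 281 TPM in tdTomato-negative against 101 TPM in tdTomato-positive cells, compared with 125 and 4.39 TPM in the GFP line. This rested on *Olfr1015* and *Olfr1006*, as the next members in tdTomato-negative cells were lower in tdTomato-positive cells, with 64.0 and 3.60 TPM for *Olfr1014*, 48.5 and 2.71 TPM for *Olfr1012*, and 44.1 TPM and 0 for *Olfr1016*. MOR174, with 12 members, was the reverse, with 183 and 36.4 TPM in the GFP line and 327 and 5.69 TPM in the tdTomato line.

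Other groups of *OR* genes differed from the members mainly in the tdTomato line. The 115 genes from *Olfr543* to *Olfr692*, all on chromosome 7 and mostly class I, summed to 2903 TPM in tdTomato-negative against 2411 TPM in tdTomato-positive cells, 1.204-fold lower, and 53.4% of those tested were at least 2-fold lower and 29.5% higher. The 169 genes from *Olfr763* to *Olfr987*, mostly class II genes on chromosomes 9 and 10, were 7.33-fold lower in sum, against 4.99-fold for the members. In the GFP line the sums were 8.05-fold lower for the first group and 11.3-fold lower for the second, against 12.5-fold for the members. With 1 library for each group, these differences between groups of genes were not tested.

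Of 18 genes for *OR* choice and receptor trafficking, most were at least 2-fold lower in GFP-positive cells. In tdTomato-positive cells the share at least 2-fold lower was near that of all genes, although the median was lower. In the GFP line 16 of the 18 were at least 2-fold lower and 0 were higher, with a median log2 value of -2.69, and in the tdTomato line 5 were lower and 0 higher, with a median of -0.85. Over all genes tested, 45% were lower and 14.2% higher in the GFP line, with a median of -0.88. In the tdTomato line 23.2% of all genes tested were lower and 17.2% higher, with a median of -0.23. Under the scaling to mature OSN markers the medians of the 18 genes were 0.37 and 0.22, above 0 in both lines. *Lhx2*, a homeodomain factor that binds *OR* enhancers, had 416 and 67.5 TPM in negative and positive cells of the GFP line and 371 and 203 TPM in the tdTomato line. *Rtp1*, which helps ORs reach the cell surface, had 802 and 120.4 TPM in the GFP line and 778 and 389 TPM in the tdTomato line. *Kdm1a*, a histone demethylase needed to start *OR* transcription, had 104 and 59.4 TPM in the GFP line and 94.5 and 82.2 TPM in the tdTomato line. The median over the 12 mature OSN markers was -3.08 in the GFP line and -1.04 in the tdTomato line, and 4 genes are in both lists.

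The start regions of the members were searched for short motifs. RefSeq windows of 250 bases before to 50 bases after the start (assembly GRCm38.p6) were found for 176 members, but only 28 of these have a RefSeq start within 100 bases of the GENCODE start, so no promoter is shown. For some of the 28, such as *Olfr993* and *Olfr1008*, both annotated starts are the first coding base. Such a window lies before the coding sequence and need not be at a start of transcription. TAATTA, a core that homeodomain factors bind and which reads the same on both strands, was in 9 of these 28 windows (32.1%), in 24.9% of all 177 member windows, in 17.1% of 771 windows of other *OR* genes, and in 5.29% of 32851 windows of all genes. TAATGA, searched on both strands, was in 35.7%, 29.4%, 28.7%, and 9.78% of the same sets. The palindrome bound by Ebf factors, TCCC and GGGA with any 2 bases between, was in 0 of the 177 member windows, 0.649% of the windows of other *OR* genes, and 0.904% of all windows. These are counts of letters in a window, and binding was not measured here.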

How the data were processed

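RNA-seq of sorted MOE cells was analysed in 4 libraries. The deposited table by the authors gives each gene symbol a TPM value. The submitters' processing notes name Trimmomatic 0.36, Salmon 1.4.0, and mm10, whereas the methods of the study name Hisat2, Cufflinks, and featureCounts, so the tool that made the TPM values and the annotation are uncertain. The labels and the methods also name different RNA and library kits. TPM keeps no depth, a tool's division of reads among similar *OR* genes affects single values, and an abundant gene lowers all others: the 10 highest genes held 31.5% of the GFP-positive and 5.72% to 9.44% of the other libraries.

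Members and gene lists were chosen with earlier results of these data known. Differences were log2((TPM + 1) ratios) of genes with at least 1 TPM in either library of a line, called at 2-fold. Sums were compared as log2 ratios without a pseudocount. Groups have 1 library each, so there is no error, interval, or p-value. Named members were, by rule, the 5 highest in each library, the 5 with the largest differences each way in each line among those with 10 TPM, up to 5 higher in both lines, up to 5 opposite between lines, both in situ probes, the first and last by position, and the 3 closest pairs. Members named outside it were chosen after their values were seen. No file of amino acid sequences was used, so identity is from global alignment of translated GENCODE M21 coding sequences (Biopython 1.88). Blocks were 500 kb. The division of the cluster at *Olfr1136*, MOR families, motifs, the printed stretches, and the values relative to OSN markers were added after the values were seen. The calling script was tested on simulated data. Alternatives were pseudocounts, minimum TPM, fold, scalings, and sets of members. Python 3.11.15, NumPy 2.4.6, pandas 2.3.3, SciPy 1.17.1, and matplotlib 3.10.9 were used.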

Additional observations from a re-analysis of the deposited data

Results flagged for a closer look

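The results below were singled out because the lines differed in direction. In none was the difference between the lines tested, as each group has 1 library. Of the members that were lower in GFP-positive and higher in tdTomato-positive cells, the highest level in any library was 94.1 TPM for *Olfr1036*, 82.7 TPM for *Olfr1034*, 39.9 TPM for *Olfr1105*, 24.9 TPM for *Olfr1019*, 19.5 TPM for *Olfr1033*, 18.2 TPM for *Olfr1056*, 17.5 TPM for *Olfr1208*, and 15.5 TPM for *Olfr1246*. Of the members that were higher in GFP-positive and lower in tdTomato-positive cells, it was 15.97 TPM for *Olfr1131*, 12.4 TPM for *Olfr1109*, and 11.2 TPM for *Olfr1214*, each in tdTomato-negative cells. In the GFP line these 3 were called higher on 2.13, 1.66, and 1.45 TPM against 0, and with a pseudocount of 10, a minimum of 10 TPM, or a 4-fold limit they were not called. The block from *Olfr1032* to *Olfr1066* had a log2 ratio of sums of 0.28 in the tdTomato line and -3.21 in the GFP line, and under the scaling to summed *OR* TPM it was 2.25 and 0.35 and no longer opposite. Except for *Olfr1033* and *Olfr1036*, each of these members was listed at 0 in at least 1 of the 4 libraries.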

How the results depend on the processing

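No paired analysis was possible because there is only 1 library per group, and for the same reason no library could be left out. Of 108 alternative values of 20 results, 79 stayed within 1.5 times (0.58 for log2 values). Among the log2 values 0 changed direction, whereas the counts and shares have no sign that could change. The cause of the values that moved further was not tested beyond how each alternative is built. The median log2 value of the members in the GFP and tdTomato lines was -4.96 and -6.29 with a pseudocount of 0.1, -0.93 and -1.20 with 10, -3.74 and -4.25 with a minimum of 10 TPM, -1.73 and -2.83 under the scaling to mature OSN markers, and -1.42 and -2.51 under that to summed *OR* TPM. Members lower in the GFP line numbered 80 with a pseudocount of 10 and 91 with a minimum of 10 TPM. Members higher in the GFP line numbered 0 with a pseudocount of 10, 1 with a minimum of 10 TPM, 28 under the scaling to mature OSN markers, 32 under that to summed *OR* TPM, and 0 at 4-fold. Members higher in the tdTomato line numbered 7 with a pseudocount of 10 and 23 under the scaling to summed *OR* TPM. The log2 ratio of summed member TPM in the GFP line was -2.76 under the median ratio and -0.54 under the mature OSN markers, and in the tdTomato line -1.26 under the mature OSN markers. The scaling to summed *OR* TPM, which for these sums was chosen after seeing the data, gave -0.086 and -0.35. The 5 highest members held 12.5% and 25.3% of the summed member TPM in GFP-negative and GFP-positive cells, and the 20 highest held 35.1%, 61.0%, and 45.3% in GFP-negative, GFP-positive, and tdTomato-negative cells. Leaving out *Olfr1034* and *Olfr1036* was also chosen after seeing the data.

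Of 145 alternative values of 29 single-member values above 0 in both libraries, 103 kept their side of 2-fold, 17 fell within it, 12 passed it, and 13 values of at least 2-fold changed direction, all in the GFP line. A further 11 alternative values changed sign from a value under 2-fold, 6 in the GFP line (*Olfr1009* and *Olfr1051*) and 5 in the tdTomato line (*Olfr1015* and *Olfr1006*), and these are counted above by their side of 2-fold. Under the scaling to mature OSN markers the log2 value was 1.02 for *Olfr1176*, 1.65 for *Olfr1155*, 0.95 for *Olfr1162*, and 0.85 for *Olfr1036*. Under the scaling to summed *OR* TPM it was 0.26 for *Olfr1046*, 1.46 for *Olfr1176*, 2.09 for *Olfr1155*, 0.41 for *Olfr1260*, 1.38 for *Olfr1162*, 1.27 for *Olfr1036*, 0.14 for *Olfr1015*, 0.29 for *Olfr1006*, and 0.42 for *Olfr1019*.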
